A study of Sus scrofa with 12 samples.

Results

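The SLC25 family was taken as every protein-coding gene of the RefSeq annotation of Sscrofa11.1 whose symbol begins with SLC25A, and it held 45 genes. An open region was given to a gene when its midpoint lay in the gene body or within 2 kb of it. Under this rule 43 of the 45 genes had at least 1 region in pig longissimus dorsi muscle, and together they held 232 of the 140081 regions detected by ATAC-seq. Across the genome 15924 of the 19550 placed protein-coding genes had a region. Of the other two members, SLC25A31 had no region in its window and SLC25A6 lies on a sequence that is not placed on a chromosome, so no region could be given to it.

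ATAC-seq uses a transposase to cut DNA that is not packed in nucleosomes, so reads gather where chromatin is open. The muscle came from 3 Duroc boars and 3 Luchuan boars, all aged 180 days, kept alike and fasted overnight. Duroc is a lean breed and Luchuan an obese Chinese breed. The deposited table has 1 read count per breed and peak, so no value below has a spread between animals, no test between the breeds was possible, and breed cannot be told apart from anything else that separated the 2 sets of libraries.

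Carriers of the SLC25 family sit almost all in the inner mitochondrial membrane. They exchange ADP for ATP and bring in phosphate, carboxylic acids, amino acids, cofactors and iron, and without them the enzymes of the matrix would lack substrates and the cytosol would lack ATP. Skeletal muscle relies on them for ATP export and for the malate-aspartate shuttle, which carries reducing equivalents from glycolysis into the mitochondrion.

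Over all regions 20759894 reads were counted for Duroc and 13746020 for Luchuan. Open signal is given as RPM, reads per 1000000 counted in all regions of that breed, and a gene's open signal is the sum over its regions, averaged over the breeds where no breed is named. A log2 ratio compares Luchuan with Duroc after this scaling and is above 0 where Luchuan was higher. Its 95% interval comes from the exact binomial interval of the Luchuan share of the reads. The libraries carry no stated molecular identifiers, 2 reads can therefore be copies of 1 molecule, and all intervals cover counting error only. The tissue label was checked with marker genes. All 10 markers of skeletal muscle fibers had regions, with an open signal of 67.4 to 302 RPM. Only 8 of the 12 markers of endothelium, adipocytes, leukocytes and liver had any, at 1.08 to 28 RPM, and CDH5, FABP4, ALB and TTR had none. The muscle markers had a median log2 ratio of -0.30, with 7 of 10 intervals below 0, while the intervals of KDR (endothelium) and CD3E (leukocytes) lay above 0 at 0.77 and 1.25, and that of PTPRC (leukocytes) below 0 at -1.02. Few reads lay behind these, with 62 Duroc reads at KDR, 13 at CD3E and 88 at PTPRC. PECAM1 (endothelium, 528 Duroc reads) and CD68 (leukocytes, 584) had -0.13 and -0.01. Their intervals held 0, as did those of ADIPOQ, PLIN1 and APOA1. Fewer cells of a type and less open chromatin per cell cannot be told apart in such bulk samples, and the part of cell composition in the ratios below was not tested.

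Open signal differed far more between the carriers than between the breeds. It ran from 264 RPM at SLC25A25 to 1.75 RPM at SLC25A47, with a median of 45.7 RPM against 37.5 RPM over all genes with a region, and 31 of the 43 members lay above that median of all genes. The order was nearly the same in both breeds. Spearman's rho between Duroc and Luchuan was 0.97 across the 43 members, whose regions and gene lengths are the same for both breeds. The same 10 genes led in each breed. Most neighbours in the order could not be separated, since the counting intervals of 37 of the 42 neighbouring pairs overlapped in at least 1 breed. The 5 pairs that did not overlap were SLC25A25 and SLC25A13, SLC25A13 and SLC25A12, SLC25A12 and SLC25A26, SLC25A43 and SLC25A48, and SLC25A53 and SLC25A47.

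**Figure D1:**
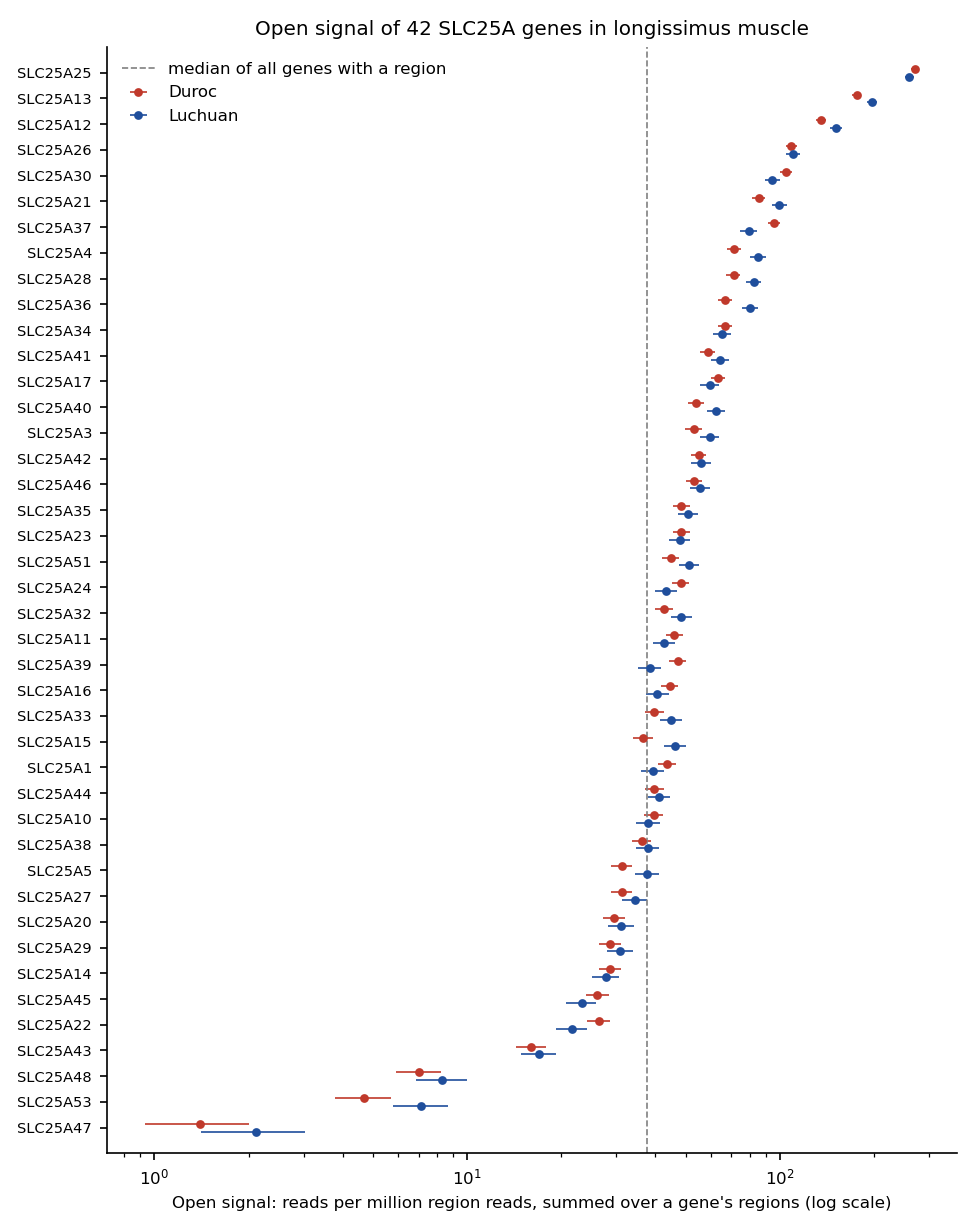
Open signal of 42 SLC25A genes with a region, in RPM summed over a gene's regions (log axis), for Duroc (red) and Luchuan (blue), in order of the mean of both breeds; lines are exact 95% Poisson intervals and the dashed line is the median of all genes, 37.5 RPM. The values fall from 264 RPM at SLC25A25 to 1.75 RPM at SLC25A47, and the breeds lie close together at almost every gene.

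The highest member was SLC25A25 on chromosome 1 (268531752 to 268575195), which encodes a calcium-dependent carrier that exchanges ATP-Mg for phosphate. Its 15 regions held 5602 Duroc and 3562 Luchuan reads, or 270 and 259 RPM, and the log2 ratio was -0.06 (95% interval -0.12 to 0.00). The signal was spread out: its strongest region held 13.3% of the reads of the gene. Of its 15 regions, 13 lay inside the gene more than 26 kb from the lower end or across the upper end, and the other two lay at or just beyond the lower end, in reach of the neighbouring gene NAIF1 as well. The strongest, 268574374 to 268575040, had 713 reads in Duroc and 496 in Luchuan, a log2 ratio of 0.07 (-0.10 to 0.24).

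Next came the carriers of the malate-aspartate shuttle that export aspartate in exchange for glutamate. SLC25A13, which encodes citrin (chromosome 9, 75781421 to 75980606), had 29 regions with 3648 Duroc and 2710 Luchuan reads, 176 and 197 RPM. SLC25A12, which encodes aralar (chromosome 15, 77895935 to 78021930), had 23 regions with 2800 and 2075 reads, 135 and 151 RPM. Their log2 ratios were alike, 0.17 (0.09 to 0.24) and 0.16 (0.08 to 0.24). In each the strongest region lay across the upper end of the gene and held 27.2% and 24.6% of the reads. That of SLC25A12 lay in the window of HAT1 as well. Without it the log2 ratio of SLC25A12 was 0.11 (0.01 to 0.20), so the likeness rests in part on a shared region. In SLC25A12 a region inside the gene, 77994648 to 77995552, was almost as strong, with 690 Duroc and 500 Luchuan reads against 648 and 539 at the upper end.

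The other members of the first 10 ranged from 2 to 19 regions. SLC25A26, the carrier of S-adenosylmethionine, had 109 RPM in Duroc and 110 RPM in Luchuan over 14 regions. SLC25A30, an uncoupling-protein-like carrier, had 105 and 94.4 RPM over 7 regions. SLC25A21, the oxodicarboxylate carrier, had 85.4 and 99.7 RPM over 19 regions in a window of 523 kb. SLC25A37, which encodes mitoferrin-1, an importer of iron, had 95.9 and 79.4 RPM over 9 regions. Its relative SLC25A28, which encodes mitoferrin-2, had 71.1 and 82.4 RPM from only 2 regions, and 98.4% of those reads lay in 1 of them. SLC25A4, the ADP/ATP carrier of heart and muscle, also had 2 regions, with 71.3 and 85.0 RPM. SLC25A36, a pyrimidine nucleotide carrier, had 66.9 and 80.2 RPM over 11 regions. The first 3 members held 23.5% of the open signal of the family and the first 10 held 48.0%.

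Because a sum favours long genes, levels were also set per length. Across the 43 members the number of regions went with gene length (Spearman's rho 0.67) and the strongest region of a gene hardly did (0.09), while the sum lay between (0.32, and 0.35 over all genes). These are descriptions across genes of the same libraries. Per kb of window, SLC25A4 was highest with 9.21 RPM per kb, followed by SLC25A34 with 7.51, SLC25A11 with 6.44, SLC25A25 with 5.57, SLC25A28 with 5.35, SLC25A5 with 4.95 and SLC25A3 with 4.72. Thus the ADP/ATP carriers SLC25A4 and SLC25A5 and the phosphate carrier SLC25A3, all in short genes, stood near the top by this measure. Dividing by the window in turn favours short genes. SLC25A5 was number 33 of the 43 members by the sum, with 34.4 RPM, and number 36 by its strongest region. SLC25A21 had 0.18 RPM per kb. The median was 1.64 for the members and 1.03 for all genes.

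Per kb of region the order changed again. SLC25A41 led with 55.5 RPM per kb, before SLC25A4 with 49.6, SLC25A28 with 46.3, SLC25A25 with 42.6 and SLC25A32 with 41.8. The median was 26.2 for the members and 21.2 for all genes, and 30 of 43 members lay above the latter. By the strongest region alone, SLC25A28 led with 75.5 RPM, before SLC25A4 with 63.2, SLC25A41 with 61.6, SLC25A40 with 57.4 and SLC25A3 with 55.0. SLC25A4 and SLC25A28 were among the first 10 by each of the 4 measures used here.

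Regions across a gene end held more of the reads of the family than regions inside genes or beyond their ends. The strongest region crossed an end of the gene in 33 of 43 members (76.7%), against 53.1% of all genes with a region. The annotation table used has no strand, so the end that holds the start of transcription was not identified. Regions across an end were 16.4% of the 232 regions and held 49.7% of their reads, beside 41.2% inside genes; over all gene windows these shares were 10.2% and 34.6%. In 35 members more than 50% of the reads lay in 1 region, and 7 members had only 1 region: SLC25A41, SLC25A32, SLC25A11, SLC25A27, SLC25A14, SLC25A53 and SLC25A47.

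Several of these regions lay in the window of another gene as well, so their reads cannot be given to the carrier alone. This held for 20 regions of 16 members. In 6 members it covered all reads: SLC25A11 shared its region with RNF167, SLC25A41 with KHSRP, SLC25A32 with DCAF13, SLC25A27 with CYP39A1, SLC25A53 with TMSB15B and ZCCHC18, and SLC25A34 its 3 regions with PLEKHM2 or TMEM82. The region of SLC25A41 did not touch the gene but lay beyond its upper end. The positions of SLC25A41, SLC25A34, SLC25A11 and SLC25A32 in the orders above therefore rest on regions that may belong to a neighbour. The same holds for SLC25A40, which had 98.4% of its reads in a region shared with DBF4. By contrast, SLC25A4, SLC25A28 and SLC25A3 shared none.

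Between the breeds the carriers differed little. None of the 43 genes passed 2-fold with 20 or more reads, in either direction. Over all genes 0.998% passed with Duroc higher and 2.22% with Luchuan higher, small shares for a family of 43. The log2 ratios of the members ran from -0.29 to 0.61. Their median was 0.07 and their quartiles were -0.06 and 0.19, beside 0.04, -0.11 and 0.19 for all genes. Only 2 members (4.65%) lay beyond 0.5 in size, SLC25A53 and SLC25A47, against 11.6% of all genes. The interval lay above 0 in 15 members and below 0 in 5, together 46.5% of the members, beside 45.2% of all genes.

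The scaling sets the point from which these directions are read. Scaled by the clean reads of the libraries in place of the reads in regions, every log2 ratio was lower by 0.23, for members and other genes alike. Of the 27 members above 0, 7 then remained above it, SLC25A53, SLC25A47, SLC25A15, SLC25A5, SLC25A36, SLC25A4 and SLC25A48, while the 16 members below 0 stayed below. Of these 7, SLC25A47 and SLC25A48 had intervals that held 0 already before this change of scaling. Peaks detected only in Luchuan were the 1 region of SLC25A47 and 2 of the 3 regions of SLC25A48. They were also 5 of the 11 regions of SLC25A36 and 3 of the 5 of SLC25A15. In these members the way the peaks were detected favours a ratio above 0. The difference between the median of the members and that of all genes, 0.03, was the same under both scalings.

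**Figure D2:**
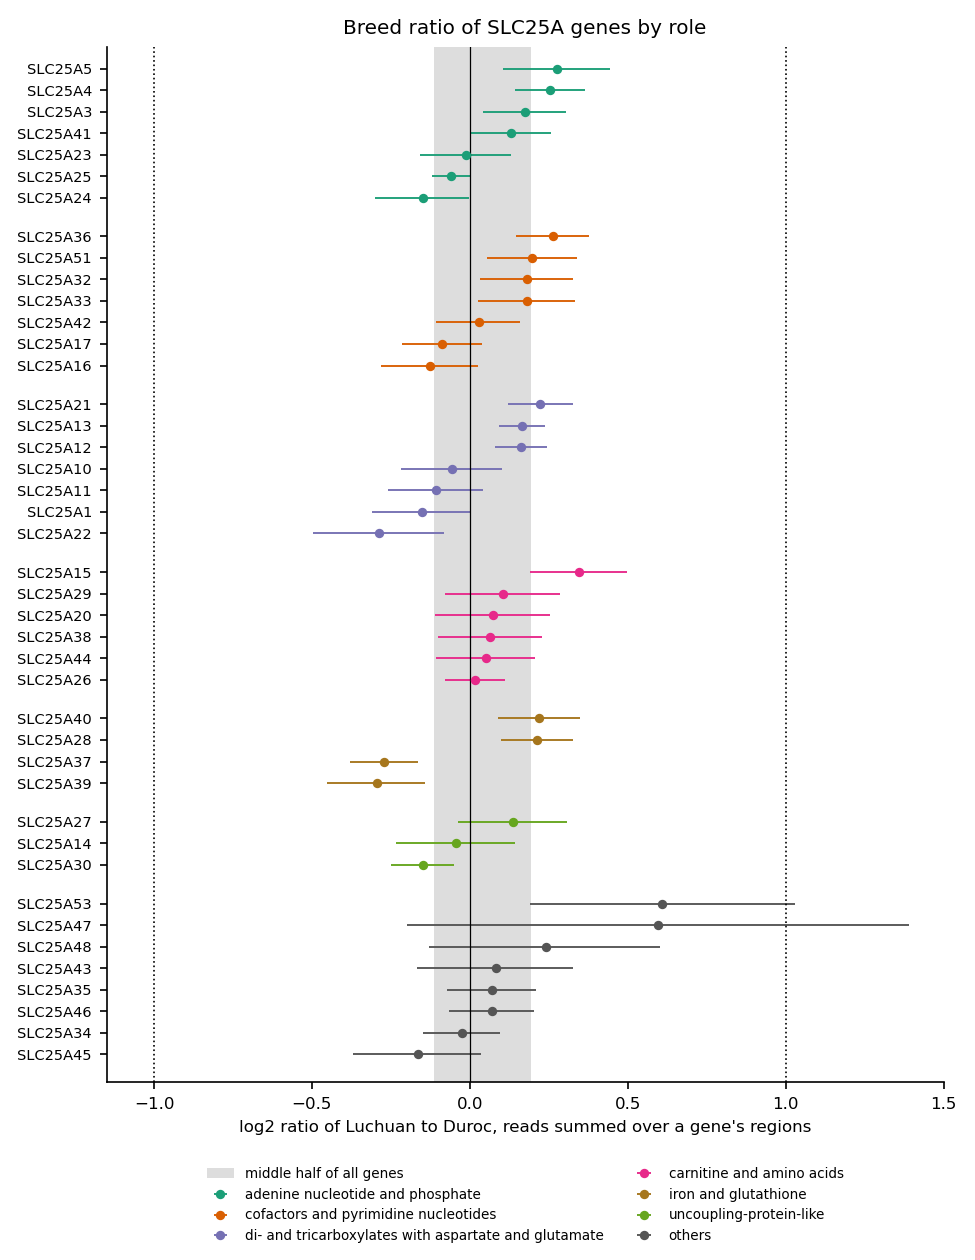
Log2 ratio of Luchuan to Duroc for the reads summed over a gene's regions (horizontal axis), for 42 SLC25A genes grouped and coloured by role; lines are 95% counting intervals, the grey band is the interquartile range of all genes (-0.11 to 0.19) and dotted lines mark 2-fold. All 42 points lie inside the dotted lines, and SLC25A37 and SLC25A39 lie on the other side of 0 from SLC25A28 and SLC25A40 in the iron and glutathione group.

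Of the 7 members that handle adenine nucleotides and phosphate, 4 had an interval above 0 and 1 below 0, and the median log2 ratio was 0.13. SLC25A4 on chromosome 15 (46193498 to 46197989) had 1481 reads in Duroc and 1169 in Luchuan, a log2 ratio of 0.25 (0.14 to 0.37). Its regions moved together, 0.25 across the lower end and 0.26 inside the gene. SLC25A5, the ADP/ATP carrier found in many tissues, lies on the X chromosome (97919295 to 97922245) and had 647 and 518 reads, with a log2 ratio of 0.27 (0.10 to 0.44). SLC25A3 had 1099 and 821 reads and a log2 ratio of 0.17 (0.04 to 0.31), with 97.6% of the reads in the region across its upper end. The ATP-Mg/phosphate carriers were lower on this scale: SLC25A41 had 0.13, SLC25A23 had -0.01, SLC25A25 had -0.06 and SLC25A24 had -0.15. After scaling by clean reads SLC25A3 and SLC25A41 lay below 0.

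The 8 carriers of cofactors and pyrimidine nucleotides had a median of 0.10, with 4 intervals above 0 and none below. SLC25A36 had 1388 reads in Duroc and 1102 in Luchuan, a log2 ratio of 0.26 (0.15 to 0.38). The NAD carrier SLC25A51 had 0.20, the folate carrier SLC25A32 had 0.18 and the pyrimidine nucleotide carrier SLC25A33 had 0.18. SLC25A42, which imports coenzyme A, had 1140 and 769 reads and 0.03 (-0.11 to 0.16). The peroxisomal carrier SLC25A17 and SLC25A16 had -0.09 and -0.13.

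The 7 carriers of di- and tricarboxylates, aspartate and glutamate split, with 3 intervals above 0 and 1 below, around a median of -0.06. Those above were SLC25A21 at 0.22, SLC25A13 and SLC25A12. The one below was SLC25A22, a glutamate carrier on chromosome 2 (491288 to 498773), with 548 Duroc and 297 Luchuan reads and a log2 ratio of -0.29 (-0.50 to -0.08). Its regions had -0.25 (-0.49 to -0.02) and -0.42 (-0.92 to 0.05). The first is shared with PIDD1, and the second is a peak detected only in Duroc. Without the shared region the interval of SLC25A22 thus held 0. SLC25A11, the oxoglutarate carrier and the other exchanger of the malate-aspartate shuttle, had 954 and 586 reads and a log2 ratio of -0.11 (-0.26 to 0.04). The citrate carrier SLC25A1 had 904 and 538 reads and -0.15 (-0.31 to 0.00), and the dicarboxylate carrier SLC25A10 had -0.06.

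All 6 carriers of carnitine and amino acids had a log2 ratio above 0, but only 1 interval excluded it, and after scaling by clean reads only that gene remained above 0. This was SLC25A15, the ornithine carrier of the urea cycle (chromosome 11, 15494176 to 15551172), with 757 Duroc and 636 Luchuan reads and a log2 ratio of 0.34 (0.19 to 0.50). The region across its lower end, which it shares with the neighbouring LOC106505276, had 0.23 (0.07 to 0.40). Without this region 61 Duroc and 94 Luchuan reads were left in the gene, with a log2 ratio of 1.21 (0.74 to 1.71), so that SLC25A15 alone passed 2-fold when shared regions were left out. Of those 94 Luchuan reads, 72 lay in 3 peaks that the authors had detected only in Luchuan, so the way the peaks were detected favours this direction. SLC25A20, the carnitine-acylcarnitine carrier that brings fatty acids to oxidation, had 612 and 426 reads and 0.07 (-0.11 to 0.25). SLC25A44, a carrier of branched-chain amino acids, had 824 and 565 reads and 0.05 (-0.11 to 0.21). SLC25A29, SLC25A38 and SLC25A26 had 0.10, 0.06 and 0.02.

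The 4 carriers of iron and glutathione went in opposite directions. The iron importer SLC25A37 (chromosome 14, 7665002 to 7709998) had 1990 reads in Duroc and 1092 in Luchuan, a log2 ratio of -0.27 (-0.38 to -0.16). Its relative SLC25A28 had 1475 and 1132 reads and 0.21 (0.10 to 0.33). The glutathione carrier SLC25A39 (chromosome 12, 18913261 to 18919761) had 977 and 527 reads and -0.29 (-0.45 to -0.14). Its relative SLC25A40 had 1118 and 861 reads and 0.22 (0.09 to 0.35), nearly all in a region shared with DBF4. The intervals did not overlap within either pair, and a distance between 2 genes does not depend on the scaling, although SLC25A28 and SLC25A40 lay just below 0 after scaling by clean reads.

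Within SLC25A37 the lower signal in Luchuan lay inside the gene. The region across its lower end had 918 reads in Duroc and 581 in Luchuan, a log2 ratio of -0.06 (-0.22 to 0.09), while the other 8 regions together had -0.47. Of those 8, 5 were lower in Luchuan with an interval that excluded 0. The largest difference was at 7672595 to 7672973, with 117 Duroc and 39 Luchuan reads and a log2 ratio of -0.97 (-1.55 to -0.46). The authors had detected this peak only in Duroc, so the way the peaks were detected favours its direction. The most reads lay in a common peak at 7678668 to 7679192, with 349 and 159 reads and -0.53 (-0.82 to -0.26). In SLC25A39 all 4 regions, packed into the lower part of the gene, were below 0, from -0.17 to -1.08. Of these, 2 were peaks detected only in Duroc, among them the region at -1.08.

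**Figure D3:**
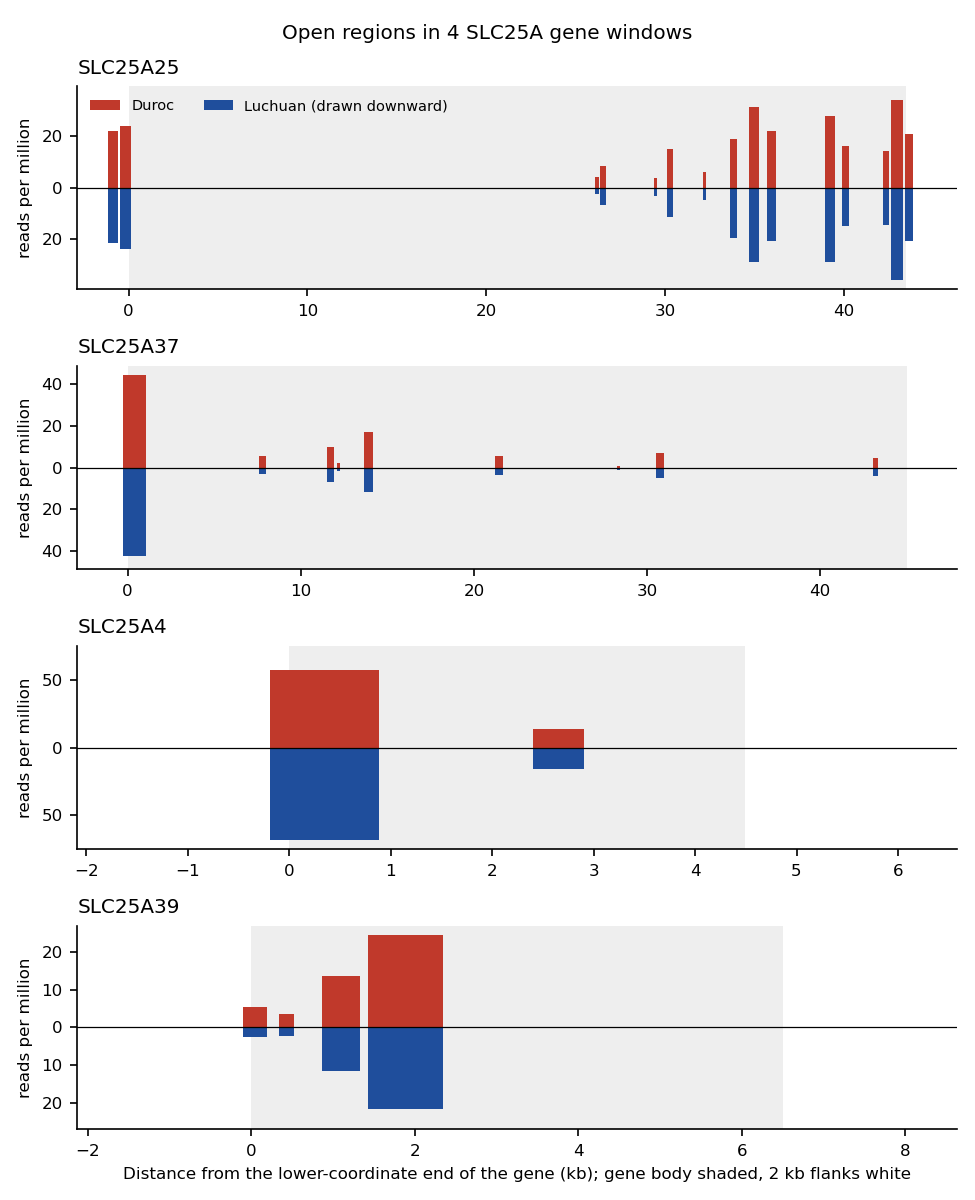
Open regions of SLC25A25, SLC25A37, SLC25A4 and SLC25A39 by distance in kb from the lower-coordinate end of each gene, with bar width equal to region width and bar height in RPM, Duroc upward in red and Luchuan downward in blue; the gene body is shaded. SLC25A25 has a row of strong regions toward its upper end, SLC25A4 has 2 regions that are both higher in Luchuan, and of the 8 inner regions of SLC25A37, 7 have a log2 ratio below 0 and 5 an interval below 0, beside -0.06 (-0.22 to 0.09) at its lower end. Of those 5, the region at 7672595 to 7672973 is a peak detected only in Duroc.

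The uncoupling-protein-like carriers and the members without a shared role added little to this. SLC25A30 had 2174 reads in Duroc and 1298 in Luchuan, a log2 ratio of -0.15 (-0.25 to -0.05). Its strongest region, across the upper end, had 0.12 (-0.03 to 0.27), while the region beyond its lower end, 21846446 to 21847384, had 490 and 209 reads and -0.63 (-0.88 to -0.40). SLC25A27 and SLC25A14 had 0.14 and -0.04. Of the 8 other members only SLC25A53 on the X chromosome had an interval off 0, with 97 Duroc and 98 Luchuan reads in its 1 shared region and a log2 ratio of 0.61 (0.19 to 1.03). SLC25A45 had 541 and 319 reads and -0.17 (-0.37 to 0.03). SLC25A47, a carrier known from liver, had 29 reads in each breed and 0.59 (-0.20 to 1.39), which this depth cannot separate from 0.

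The contrast between strongest and remaining regions seen in SLC25A37 and SLC25A30 was measured in every member with enough reads, since it does not depend on the scaling. In 36 members the regions other than the strongest held 20 or more reads. Their log2 ratio was below that of the strongest region in 24 of the 36 (66.7%), with a median difference of -0.16, beside 59.7% and -0.08 over 12440 genes. The difference was -0.47 in SLC25A30, -0.41 in SLC25A37, -0.22 in SLC25A12 and -0.15 in SLC25A25. Over the 36 members it ran from -0.91 in SLC25A3 to 1.45 in SLC25A48. Of the 12 members in which it was above 0, the next highest were SLC25A15 at 0.98 and SLC25A45 at 0.66, and SLC25A36 had 0.39. The ends of this range rest on few reads. The rest of SLC25A3 was 1 peak detected only in Duroc, with 36 Duroc and 14 Luchuan reads. That of SLC25A48 was 2 peaks detected only in Luchuan, with 32 and 50 reads. That of SLC25A45 had 30 and 27 reads and an interval that held 0. In SLC25A15, 72 of 94 Luchuan reads of the rest lay in 3 peaks detected only in Luchuan.

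By single regions, 16 of the 231 member regions with 20 or more reads were 2-fold or more higher in Luchuan (6.93%), against 7.03% of all regions. Only 1 was higher in Duroc (0.433%), against 4.84% of all regions. The first share is near that of all regions, but these include regions outside gene windows. Shares for regions in gene windows are given by read depth below. The second is lower, and after scaling by clean reads it was 8 regions in each direction, against 8.41% of all regions with Duroc higher and 4.39% with Luchuan higher.

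The region with Duroc higher lay across the lower end of SLC25A39, at 18913159 to 18913451, with 111 Duroc and 34 Luchuan reads and a log2 ratio of -1.08 (-1.71 to -0.55). The authors had detected this peak only in Duroc, so the way the peaks were detected favours its direction. The 16 regions with Luchuan higher lay in 8 members: 3 each in SLC25A13, SLC25A15, SLC25A21 and SLC25A36, and 1 each in SLC25A24, SLC25A26, SLC25A33 and SLC25A48. All 16 were weak and belonged to the peaks that the authors had detected only in Luchuan, a class set on the same libraries. The highest ratio was at 63063175 to 63063330 in SLC25A21, with 6 Duroc and 17 Luchuan reads and a log2 ratio of 1.96 (0.69 to 3.73). Most reads were in SLC25A26 at 47774285 to 47774633, with 25 and 39 reads and 1.22 (0.48 to 2.02). In SLC25A36 a region at 81777686 to 81777911 had 12 and 26 reads and 1.65 (0.67 to 2.83). The 3 of SLC25A15 had 14 and 26, 10 and 21, and 18 and 25 reads. Only 1 of the 17 intervals held 0, that of a region in SLC25A13 with 13 and 18 reads. The regions were called on the same counts, so their intervals lend the calls no further support.

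The 17 regions held 0.905% of the reads of the family, with a median of 40 reads in both breeds together against 132.5 over all 232 member regions. Among member regions with 20 to 49 reads, 23.2% were called higher in Luchuan, against 16.3% of all regions of that depth in gene windows. Among the 59 member regions with 500 or more reads none was called in either direction, and 0.122% and 0.531% of such regions in all gene windows were, with Luchuan and Duroc higher. Read depth thus moved with the calls, and its part in them was not tested.

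**Figure D4:**
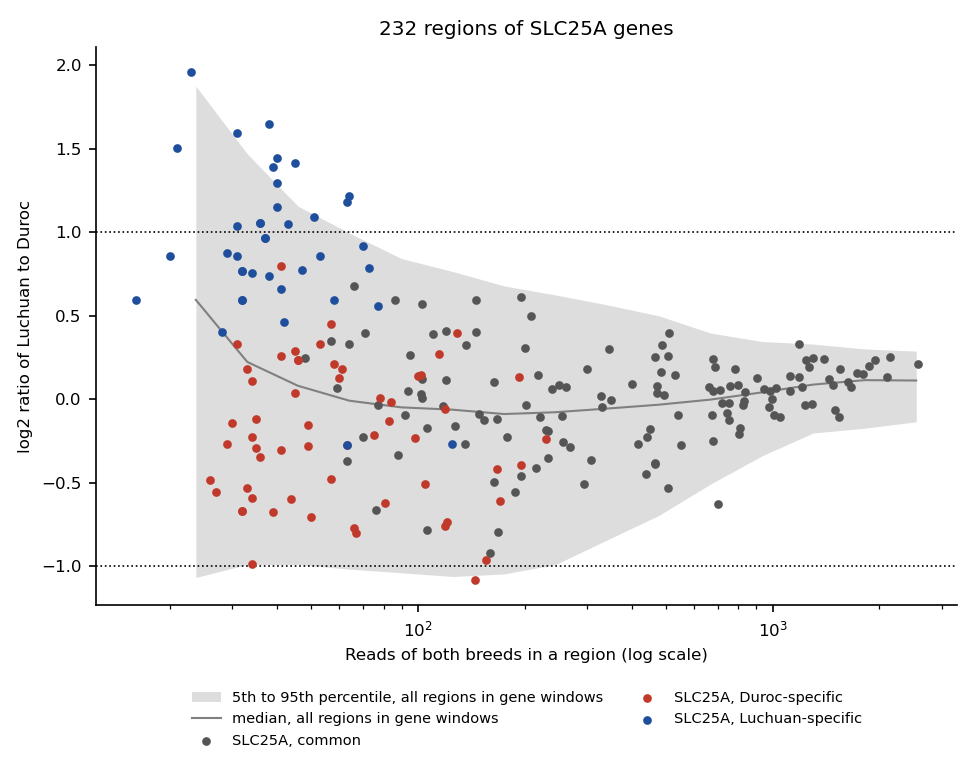
Log2 ratio of Luchuan to Duroc against the reads of both breeds (log axis) for the 232 regions of SLC25A genes, coloured by the peak class of the deposited table; the grey band spans the 5th to 95th percentile and the grey line the median of all regions in gene windows, and dotted lines mark 2-fold. The points beyond 2-fold all hold 145 reads or fewer, and every region with 500 or more reads lies within 2-fold.

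By class, 135 of the 232 member regions were common peaks (58.2%, against 51% in all gene windows) and held 93.2% of the reads. Peaks detected only in Duroc were 25% (31.7% in all gene windows), and those only in Luchuan 16.8% (17.3%). The strongest region of a gene was a common peak in 42 of 43 members, against 90.2% of all genes. The exception was SLC25A47.

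On the X chromosome lie 4 members, and none was called, beside 6.24% of the 513 X-linked genes tested, both directions together. SLC25A5, SLC25A43, SLC25A53 and SLC25A14 had log2 ratios of 0.27, 0.08, 0.61 and -0.04. Their median was 0.18, beside -0.09 over the 518 X-linked genes with a region. All reads of SLC25A53 and 94.2% of those of SLC25A43 lay in regions shared with other genes, in SLC25A43 with AKAP17B. The rest of SLC25A43 had 23 Duroc and 10 Luchuan reads and -0.53 (-1.84 to 0.52).

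SLC25A31, the ADP/ATP carrier of testis, lies at 97095503 to 97120940 on chromosome 8 and had no region within 2 kb. The nearest lay 6.21 kb away, at 97127075 to 97127224, with 11 Duroc and 14 Luchuan reads. The table lists only detected peaks, so a gene without a region was not detected as open at this depth and has no value of 0.

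The relatives that carry other symbols were set beside the family. UCP2, an uncoupling protein, had 814 reads in Duroc and 345 in Luchuan, a log2 ratio of -0.64 (-0.83 to -0.46), below every SLC25A member. UCP3, the uncoupling protein of muscle, had 1207 and 801 reads and 0.00 (-0.13 to 0.13). UCP1, the uncoupling protein of brown fat, which is not functional in pigs, had only 27 and 41 reads and was called higher in Luchuan at 1.18 (0.46 to 1.95). The outer membrane proteins MTCH1 and MTCH2 had 0.15 and -0.03.

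Of 23 other genes for mitochondrial transport, all had a region and none was called as a gene. Their median log2 ratio was -0.01, beside 0.07 for the SLC25A genes and 0.04 for all genes. They ran from -0.79 at CPT1A (231 Duroc and 88 Luchuan reads), the carnitine palmitoyltransferase best known from liver, to 0.35 at CPT2 (578 and 489 reads), the enzyme that acts after SLC25A20. CPT1B, the form of muscle, had 0.08 (-0.11 to 0.27), close to the 0.07 of SLC25A20.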

How the data were processed

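The study trimmed its reads by Trimmomatic 0.36, used Bowtie2 for alignment to Sscrofa11.1 and called peaks by MACS2. Removal of duplicate reads, the shift for the transposase and pooling of replicates are not given in the sources used here. The authors deposited raw read counts, 1 column per breed, for 217213 intervals. They also deposited a log2 fold change, an average log2 signal and a p-value of their own comparison, which were not used. RNA-seq samples were not analysed here. The values of 1 member are counted in the totals but not reported here singly.

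Common intervals that overlapped or touched were joined, and the longest stood for the region. Positions count from 1. Ratios are log2 of counts with 1 read added, scaled by the reads in all regions. A call needed 2-fold and 20 reads in both breeds together. With 1 count per breed there was no test. Genes came from RefSeq, without strand, exons or sequence.

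The members and gene lists were chosen with earlier results of these data known. Values are given for the 10 members highest by open signal, the 5 with the highest and the 5 with the lowest log2 ratio among those with 100 or more reads, 14 carriers of central metabolism (13 with a region) and called regions. Other genes and regions were chosen after their values were seen. Scripts ran in Python 3.11.15 (SciPy 1.17.1, pandas 2.3.3, NumPy 2.4.6; figures, Matplotlib 3.10.9).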

Additional observations from a re-analysis of the deposited data

How the results depend on the processing

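No paired analysis was possible because the table has 1 count per breed, and for the same reason no replicate could be left out. The count of member regions higher in Duroc (1) was 2 with the median ratio of all regions set to 0, 8 with clean reads, 33 without scaling, 3 with every interval, 0 with common intervals, 2 with flanks of 10 kb, 0 with 5 reads added, 20 at 1.5-fold and 3 when scaled within bins of like read totals. The count higher in Luchuan (16) was 8 with clean reads, 3 without scaling, 0 with common intervals and 19 with flanks of 10 kb. It was 12 with 5 reads added, 0 with 100 or more reads, 38 at 1.5-fold and 10 within bins. The count of genes past 2-fold (0) was 2 at 1.5-fold and 1 without regions shared with another gene. The median log2 ratio was -0.16 with clean reads and -0.53 without scaling. Of the 10 members highest by open signal, 6 were shared with the order at flanks of 10 kb, 4 with the order by strongest region, 3 with that per kb of window and 3 with that per kb of region. The bins and the removal of shared regions were chosen after seeing the data. The cause of these changes was not tested beyond what each setting alters. Depth limits SLC25A47, SLC25A53 and SLC25A48 most.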
